A study of Homo sapiens with 6 samples.

Results

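Retinal pigment epithelium (RPE) cells engulf the shed tips of photoreceptor outer segments, and 10 genes that encode the receptors, bridging ligands and accessory proteins of this uptake were followed in WT and POLDIP2 KO ARPE-19 cells: MERTK, AXL, TYRO3, GAS6, PROS1, ITGAV, ITGB5, MFGE8, CD36 and TUB. They were taken by name from the 37902 genes of the normalised count table, by a rule that uses no measured value, though with earlier results of these data known. ARPE-19 cells are a human line of RPE origin. WT is the parental line, and POLDIP2 KO is the same line after lentiviral delivery of SpCas9 with an sgRNA against POLDIP2, puromycin selection and expansion, and no step that isolates single clones is described. Both lines were harvested at day 3 in regular culture, without outer segments or other added particles named in the labels, as 3 biological replicates each, which gave 6 libraries. POLDIP2 KO carried the integrated lentivirus and had been under puromycin, WT had neither, and the effects of these and of the loss of POLDIP2 cannot be told apart here.

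Outer segment uptake works in steps. Dying membranes expose phosphatidylserine, which is bound by bridging ligands. MFGE8 links the membrane to the integrin αvβ5, made of the chains ITGAV and ITGB5, which tethers the particle to the RPE surface. GAS6 and PROS1 link it to MERTK, a receptor tyrosine kinase of the TAM family (TYRO3, AXL, MERTK) that triggers internalisation. Loss of MERTK is a known cause of inherited retinal degeneration, CD36 is a scavenger receptor that binds oxidised lipids on the membrane, and TUB (tubby) has been described as a further bridging protein.

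The sgRNA is shown because it defines the lines compared, with its PAM, read from the genome, in capitals.
POLDIP2 guide: cgtcgaccacgacgacgcggAGG
The 20 bases before the PAM matched 1 place on chromosome 17 of GRCh38 next to a PAM, chr17:28357305-28357324 on the minus strand, in coding sequence of exon 1 of POLDIP2. The normalised count of POLDIP2 was 3919, 4827 and 4798 in the 3 WT libraries and 1063, 1248 and 1143 in the 3 POLDIP2 KO libraries, here and throughout in the order of the replicate numbers. The lines did not overlap, and POLDIP2 fell by 1.97 on the log2 scale (SE 0.125) with an adjusted p of 0.00961 in limma. The normalised count is the number of reads of a gene divided by a size factor for the library, and the reads assigned to genes, recovered from the deposited values, numbered between 31532797 and 45795509 per library. Test results are from limma on log2(normalised count + 1), with fold changes on that scale, where the added 1 shrinks the differences of low values, for the 14684 genes with a mean of at least 10, and a gene was called at an adjusted p under 0.05 and a fold change over 1.5.

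None of the members was called. Of the 10, 9 had a mean high enough to be tested, and TUB had 0 reads in all libraries. The number of tested members called was 0 in limma, against 0.17% of all genes tested, 0 in limma with the replicate number as block, against 0.204%, and 0 on reads recovered from the deposited values in edgeR without a block (0.116% of all genes), in edgeR with it (0.0341%) and in DESeq2 (1.69%). The 9 tested members had an adjusted p of 1.00 in limma, 4 were higher and 5 lower in POLDIP2 KO, and their median log2 fold change was -0.08, against 0.00 for all genes. The number with an unadjusted p under 0.05 was 0, where 6.48% of all genes had one. The WT and POLDIP2 KO values overlapped for all 9, whereas the lines did not overlap for 10.9% of all genes. Because the RNA comes from whole cultures, fewer cells with a transcript and less of it per cell cannot be told apart.

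**Figure D1:**
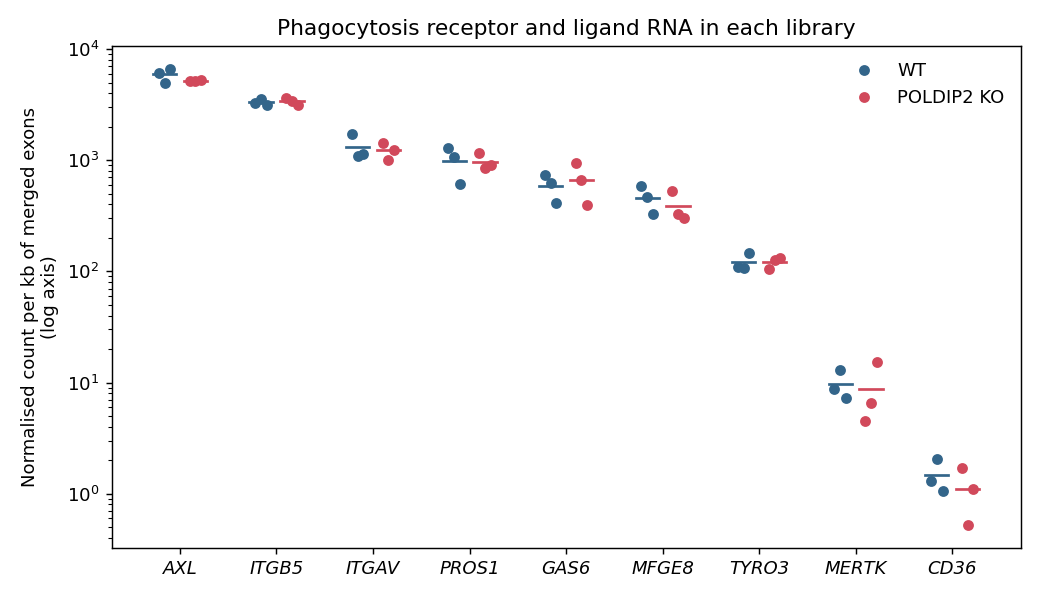
Normalised count per kb of merged exons (log axis) of the 9 members with reads, with 1 point per library and a bar at the mean of the 3 libraries of each line. AXL is highest and CD36 lowest in both lines, and for each member the points of WT and POLDIP2 KO overlap; TUB, with 0 reads, is not drawn.

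Among the TAM receptors, AXL was the abundant one and MERTK was close to the lower end of what is detected. AXL (ENSG00000167601, chr19:41219223-41261766, plus strand) had a normalised count of 31470, 25703 and 34193 in WT and 26398, 26536 and 27278 in POLDIP2 KO. The 3 POLDIP2 KO values lay close together, between the lowest and the other WT values. The mean was 30455 ± 4335 (SD, n = 3) in WT and 26737 ± 474 (SD, n = 3) in POLDIP2 KO. The log2 fold change was -0.18 (SE 0.134, 95% interval -0.50 to 0.14, unadjusted p = 0.227 in limma), an interval that stays inside a 1.5-fold change in either direction.

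MERTK (ENSG00000153208, chr2:111898607-112029561, plus strand) had a normalised count of 35.9, 53.2 and 30.3 in WT and 18.5, 26.9 and 63.5 in POLDIP2 KO. POLDIP2 KO held both the lowest and the highest library, and replicate 3 went the opposite way from replicates 1 and 2: the log2 difference between same-numbered libraries was -0.92 and -0.96 in replicates 1 and 2 and 1.05 in replicate 3. These values stand on 38, 53 and 29 reads in WT and 15, 33 and 64 reads in POLDIP2 KO, and the exact 95% Poisson interval of the highest library, 49.3 to 81.7 reads, covers counting error only. For MERTK the log2 fold change was -0.28 (SE 0.517, 95% interval -1.50 to 0.94, unadjusted p = 0.606 in limma), an interval that holds changes of more than 1.5-fold in either direction. On the recovered reads it was -0.13 in DESeq2 and in edgeR without a block, and -0.29 in edgeR with the replicate block. In limma it turned to 0.10 when POLDIP2 KO replicate 1 was left out.

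TYRO3 (ENSG00000092445, chr15:41557675-41583589, plus strand) had a normalised count of 1186, 1149 and 1585 in WT and 1128, 1377 and 1415 in POLDIP2 KO. The means were nearly the same, 1306 ± 242 (SD, n = 3) in WT and 1307 ± 156 (SD, n = 3) in POLDIP2 KO. The log2 fold change of 0.01 (SE 0.166, 95% interval -0.38 to 0.40, unadjusted p = 0.959 in limma) stayed inside a 1.5-fold change. TYRO3P, a pseudogene copy of TYRO3, had at most 3 reads in a library, so few reads were assigned to the copy.

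The 3 receptors differed in level far more than the lines did. Per kb of merged exons, AXL made up 97.3% to 98.1% of the summed TAM receptor level over the 6 libraries, TYRO3 1.76% to 2.41% and MERTK 0.0850% to 0.282%. The ratio of AXL to MERTK per kb was 706, 389 and 909 in WT and 1152, 795 and 346 in POLDIP2 KO. Its mean was 668 ± 262 (SD, n = 3) in WT and 764 ± 404 (SD, n = 3) in POLDIP2 KO, which overlap. The spread of this ratio followed MERTK, which varied 3.44-fold between the lowest and highest library where AXL varied 1.33-fold.

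The windows just upstream of the transcription start of AXL and MERTK are shown because these receptors stand at the upper and lower end of the family. Each is the 250 bases before the RefSeq start on GRCh38.p14, plus strand, at chr19:41218973-41219222 for AXL and chr2:111898357-111898606 for MERTK, with every CG dinucleotide in capitals.
AXL: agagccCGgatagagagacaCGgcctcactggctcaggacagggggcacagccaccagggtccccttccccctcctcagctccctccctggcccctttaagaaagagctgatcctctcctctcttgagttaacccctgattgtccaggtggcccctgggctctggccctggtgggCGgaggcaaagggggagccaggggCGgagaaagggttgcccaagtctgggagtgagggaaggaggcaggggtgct
MERTK: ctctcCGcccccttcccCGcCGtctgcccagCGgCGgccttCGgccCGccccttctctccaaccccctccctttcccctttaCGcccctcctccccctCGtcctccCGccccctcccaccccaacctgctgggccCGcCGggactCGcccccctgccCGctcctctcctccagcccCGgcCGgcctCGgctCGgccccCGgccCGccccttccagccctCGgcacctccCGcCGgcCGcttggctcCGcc
CG, which reads the same on both strands, occurred 4 times in the AXL window and 25 times in the MERTK window, and 11 times in the median of 35116 RefSeq windows of the same length. As few as in AXL were found in 34.3% of these windows, and as few as in MERTK in 80.4%. All 10 members matched a RefSeq window. Several have more than 1, such as CD36 with 6, ITGB5 and TUB with 3 and AXL with 2. Only the window nearest the start of the canonical transcript was counted. The number of CG was 39 in TYRO3, 31 in GAS6, 9 in PROS1, 18 in ITGAV, 23 in ITGB5, 24 in MFGE8, 1 in CD36 and 30 in TUB. TUB, with 0 reads, and GAS6, among the abundant members, thus had nearly the same number, and the count of CG did not order the members by level.

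The ligands of the TAM receptors were expressed by the cells themselves and did not differ between the lines beyond their spread. GAS6 (ENSG00000183087, chr13:113820549-113864076, minus strand), a vitamin K-dependent ligand of all TAM receptors, had a normalised count of 4451, 3762 and 2460 in WT and 5650, 3968 and 2388 in POLDIP2 KO. In both lines it was highest in replicate 1 and lowest in replicate 3. The mean was 3558 ± 1011 (SD, n = 3) in WT and 4002 ± 1631 (SD, n = 3) in POLDIP2 KO, with a log2 fold change of 0.13 (SE 0.344, 95% interval -0.69 to 0.94, unadjusted p = 0.725 in limma). The sign turned to -0.17 without POLDIP2 KO replicate 1 and to -0.12 without WT replicate 3.

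PROS1 (ENSG00000184500, chr3:93873051-93980003, minus strand) encodes protein S, an anticoagulant that also binds MERTK and TYRO3. Its normalised count was 6851, 5585 and 3213 in WT and 6179, 4465 and 4760 in POLDIP2 KO. WT held both the highest and the lowest value. Its log2 fold change was 0.03 (SE 0.282, 95% interval -0.63 to 0.70, unadjusted p = 0.913 in limma), and it was -0.28 without WT replicate 3. PROS2P, a pseudogene copy of PROS1, had at most 1 read in a library.

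MFGE8 (ENSG00000140545, chr15:88898683-88913468, minus strand), the ligand of the integrin arm, had a normalised count of 4894, 3887 and 2736 in WT and 4428, 2707 and 2521 in POLDIP2 KO. The lines overlapped, but in each same-numbered pair POLDIP2 KO was the lower one, by 0.14, 0.52 and 0.12 on the log2 scale in replicates 1, 2 and 3 as WT minus POLDIP2 KO. MFGE8 was the 1 member of the 9 with the same direction in all pairs, which 32.7% of all genes had, and 15.7% of all genes were lower in POLDIP2 KO in all pairs. The mean was 3839 ± 1080 (SD, n = 3) in WT and 3218 ± 1051 (SD, n = 3) in POLDIP2 KO, with a log2 fold change of -0.26 (SE 0.280, 95% interval -0.92 to 0.40, unadjusted p = 0.381 in limma). In the limma fit that blocks on the replicate number, the interval narrowed to -0.54 to 0.02, inside a 1.5-fold change, and the unadjusted p was 0.0623 (adjusted p = 0.487). Neither fit called the gene.

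Per kb of merged exons, PROS1 was the largest of the 3 bridging ligands in every library, followed by GAS6 and then MFGE8. MFGE8 made up 22.4%, 21.7% and 24.4% of their summed level in WT and 20.1%, 17.7% and 18.9% in POLDIP2 KO, so its share was lower in all POLDIP2 KO libraries, and its mean was 22.8% ± 1.40 (SD, n = 3) in WT against 18.9% ± 1.18 (SD, n = 3) in POLDIP2 KO. This share was looked at after the values of the single genes were known and was not tested; with 3 libraries against 3, the smallest p an exact two-sided permutation test can give is 0.1. PROS1 made up 45.3% to 49.5% in WT and 44.4% to 56.3% in POLDIP2 KO, and GAS6 28.2% to 30.4% in WT and 24.8% to 36.0% in POLDIP2 KO.

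**Figure D2:**
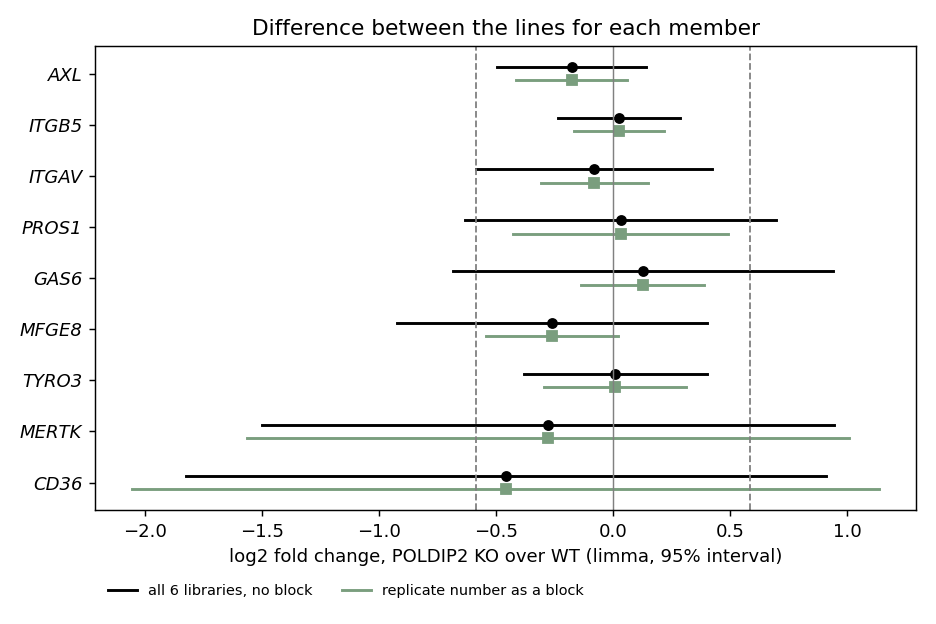
Log2 fold change of POLDIP2 KO over WT for the 9 tested members, with 95% intervals from limma, without a block (black circles) and blocked on the replicate number (green squares). The dashed lines mark a 1.5-fold change, the intervals of AXL, TYRO3, ITGAV and ITGB5 without a block lie between them, and all intervals include 0.

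Both chains of the integrin αvβ5 were among the abundant transcripts and were close to equal in WT and POLDIP2 KO. ITGAV (ENSG00000138448, chr2:186590010-186680901, plus strand) encodes the αv chain, which also pairs with other β chains. Its normalised count was 33020, 21070 and 22035 in WT and 27868, 19582 and 23769 in POLDIP2 KO. Replicate 1 was the highest library in both lines. Between the lines, the log2 fold change was -0.08 (SE 0.213, 95% interval -0.58 to 0.42, unadjusted p = 0.718 in limma), just inside a 1.5-fold change, and it turned to 0.12 without WT replicate 1 and to 0.05 without POLDIP2 KO replicate 2.

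ITGB5 (ENSG00000082781, chr3:124761948-124901418, minus strand) encodes the β5 chain. Its normalised count was 21159, 23377 and 20545 in WT and 23455, 22120 and 20626 in POLDIP2 KO. It was the steadiest of the members, with a range of 1.14-fold over all 6 libraries. With a log2 fold change of 0.02 (SE 0.110, 95% interval -0.24 to 0.28, unadjusted p = 0.828 in limma), it had the narrowest interval. Without a block, ITGAV, ITGB5, AXL and TYRO3 were the 4 of 9 members with intervals inside a 1.5-fold change, which 47.5% of all genes had. In the blocked limma fit there were 7 of 9, with MFGE8, GAS6 (-0.14 to 0.39) and PROS1 (-0.43 to 0.49) added, against 57.1% of all genes.

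CD36 and TUB were scarcely detected or not detected. CD36 (ENSG00000135218, chr7:80369575-80679277, plus strand) had a normalised count of 14.2, 22.1 and 11.5 in WT and 18.5, 5.70 and 11.9 in POLDIP2 KO, from 15, 22 and 11 reads and from 15, 7 and 12 reads. The lowest library was POLDIP2 KO replicate 2, whose exact 95% Poisson interval was 2.81 to 14.4 reads, for counting error only. The log2 fold change of -0.46 (SE 0.579, 95% interval -1.83 to 0.91, unadjusted p = 0.454 in limma) had the widest interval of any member, and it holds changes of more than 1.5-fold in either direction. It was -0.04 without POLDIP2 KO replicate 2.

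TUB (ENSG00000166402, chr11:8019244-8106243, plus strand) had 0 reads in each of the 6 libraries, which allows a normalised count of up to 2.44 to 3.69, depending on the library, at 3 reads per library. Per kb this is at most 0.349 to 0.527, and AXL was at least 9758-fold higher per kb in every library at this limit. A difference of TUB between the lines could not be measured.

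Per kb of merged exons, which allows genes to be set side by side, the members ran from among the most abundant to among the least abundant genes tested. In WT the mean level was 5932 ± 844 (SD, n = 3) normalised counts per kb for AXL, 3330 ± 229 for ITGB5 and 1312 ± 343 for ITGAV. It was 990 ± 350 for PROS1, 591 ± 168 for GAS6 and 461 ± 130 for MFGE8. It was 121 ± 22.5 for TYRO3, 9.63 ± 2.89 for MERTK and 1.46 ± 0.506 for CD36. Of 13799 tested genes with a length in GENCODE 44, whose median in WT was 165 per kb, AXL ranked 165th from the top and MERTK 12483rd.

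The order was the same in POLDIP2 KO, with 5208 ± 92.3 (SD, n = 3) per kb for AXL, 3387 ± 217 for ITGB5, 1228 ± 214 for ITGAV, 974 ± 174 for PROS1, 665 ± 271 for GAS6, 387 ± 126 for MFGE8, 121 ± 14.5 for TYRO3, 8.78 ± 5.80 for MERTK and 1.10 ± 0.586 for CD36. In both lines the libraries of ITGAV and PROS1, of PROS1 and GAS6, and of GAS6 and MFGE8 overlapped between libraries, so the spread over libraries does not separate these neighbours in the order. The other neighbours did not overlap in either line. Within a library, the order was the same in all 6. Dividing by the longest transcript in place of merged exons placed GAS6 (1512 per kb) above PROS1 (1494 per kb) in POLDIP2 KO and left the order in WT as it was, although it raised the levels of several members more than 1.5-fold.

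The members were also compared by replicate number. GAS6, PROS1, ITGAV and MFGE8 were highest in replicate 1 of both lines, 4 of 9 members, against 22% of all genes tested. An F test of the replicate number in a limma fit with line and replicate, added after the data were seen, gave an unadjusted p of 0.000871 for GAS6 (adjusted p = 0.0606), 0.00387 for MFGE8 (adjusted p = 0.106) and 0.00711 for ITGAV (adjusted p = 0.133). These were the 3 of 9 members with an unadjusted p under 0.05, which 18.9% of all genes had. After adjustment the number of members was 0, against 0.913% of all genes.

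The sum of the mesenchymal markers was highest in the same libraries. The summed normalised count of the 8 markers, of which 6 passed the filter on low values and none was at 0 throughout, was 9693, 4294 and 4587 in WT and 17416, 4056 and 6646 in POLDIP2 KO. Replicate 1 was thus the highest in both lines for the sum as well. Replicate 3 was above replicate 2 for the sum in both lines, as it was for ITGAV in both lines and for PROS1 in POLDIP2 KO, and below it for GAS6 and MFGE8 in both lines and for PROS1 in WT. PDGFRB, a growth factor receptor of mesenchymal cells, was the most abundant of them, at 4623, 1778 and 2223 in WT and 6572, 1293 and 2880 in POLDIP2 KO. The collagen chain gene COL1A1 had 2147, 320 and 677 in WT and 6956, 760 and 1953 in POLDIP2 KO, and COL1A2 reached 614 in POLDIP2 KO replicate 1 and at most 9.45 in any other library. Not all markers had this order: in WT, replicate 1 was the lowest library for THY1 (29.3, 36.1 and 54.3), COL3A1 (2.83, 3.01 and 7.31) and DCN (0, 3.01 and 1.04), while in POLDIP2 KO it was the highest for all 3. The part of these markers in the levels of GAS6, PROS1, ITGAV and MFGE8 was not tested. With the replicate block, COL1A1 was higher in POLDIP2 KO by 1.49 on the log2 scale with an adjusted p of 0.0436 in limma, which was 0.981 without the block and 0.0603 in edgeR with the block.

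**Figure D3:**
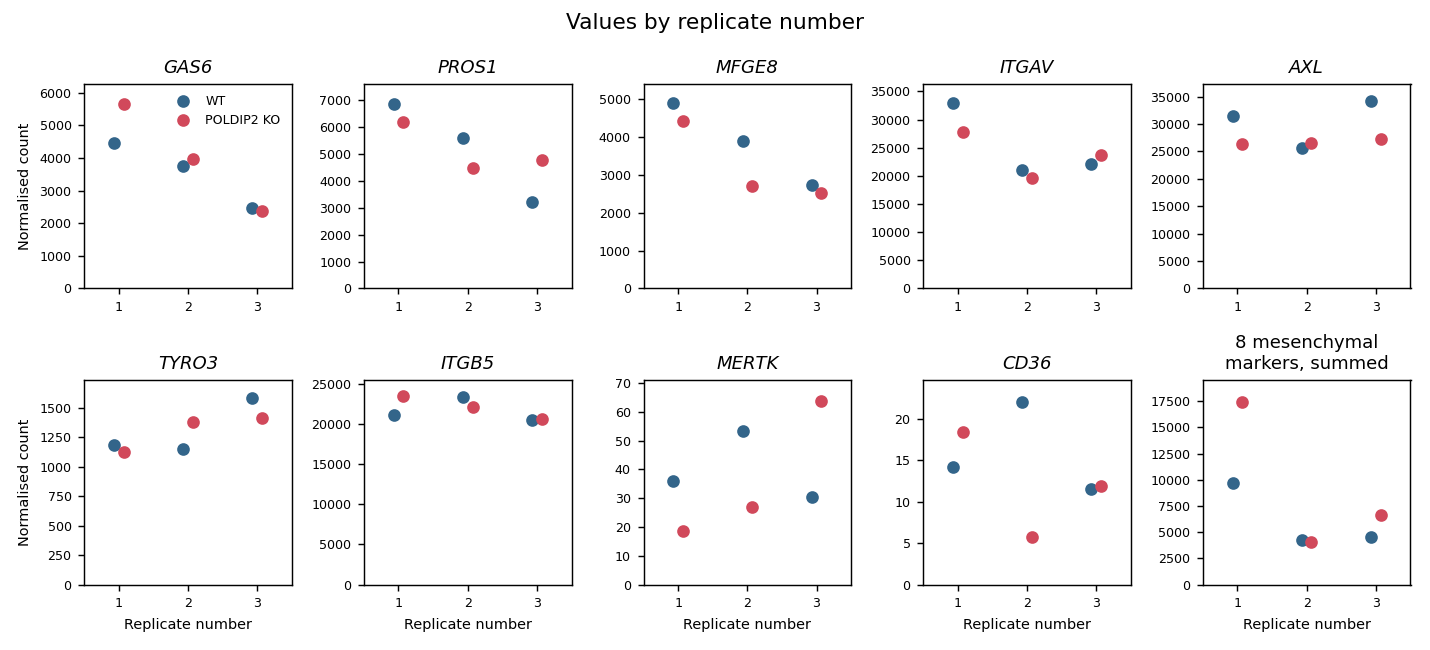
Normalised count of each tested member by replicate number, WT in blue and POLDIP2 KO in red, with the sum of the 8 mesenchymal markers in the last panel; every axis starts at 0. GAS6, PROS1, MFGE8, ITGAV and the marker sum are highest in replicate 1 of both lines, and ITGB5 is nearly level.

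Across the 6 libraries the members did not vary in 1 common direction. The Pearson correlation of log2(normalised count + 1) over the 36 pairs of tested members ran from -0.92 to 0.83 with a median of 0.06, given as a description of 6 libraries that share lines, replicate numbers and depth. MFGE8 had r = 0.80 with GAS6 and r = 0.83 with PROS1, and TYRO3 had r = -0.84 with GAS6, -0.92 with PROS1 and -0.86 with MFGE8. These were picked from the 36 pairs. TYRO3 was also negative with ITGB5 (r = -0.78), CD36 (r = -0.64) and ITGAV (r = -0.48), so this was not particular to the ligands. It was positive with AXL (r = 0.54) and MERTK (r = 0.14). With GAS6, PROS1 and MFGE8, AXL had r = -0.39, -0.43 and -0.05, and MERTK had r = -0.62, -0.03 and -0.29. The genes most like MERTK among all genes tested were HES2 (r = 0.99), OSBP (r = 0.98) and ENSG00000282367 (r = 0.98), and those most like AXL were STK35 (r = 0.99), ENSG00000284832 (r = 0.99) and PCNT (r = 0.99). They were picked as the highest among 14684 genes over only 6 libraries.

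The rest of the uptake pathway was examined in 5 lists of 71 genes, of which 70 were analysed and 59 passed the filter and were tested. None was called in limma, with or without the block, nor in edgeR or DESeq2. An unadjusted p under 0.05 was reached by 4 of the 59 in limma, 3 higher and 1 lower in POLDIP2 KO, where 3% of all genes reached it as higher and 3.47% as lower. In the blocked limma fit 12 of the 59 reached it, 10 higher and 2 lower, where 11.1% of all genes did. The smallest adjusted p was 0.0748, for MYO7A. The 10 higher were MYO7A, FN1, LRP1, LGALS3, CAV1, ATG7, TIMP3, PIK3R1, CTSD and VTN, and the 2 lower were ELMO2 and RAB7A. In that fit the unadjusted p was 0.00286 for LRP1 (adjusted p = 0.139), 0.00522 for LGALS3 (0.178), 0.0318 for CTSD (0.377) and 0.0452 for VTN (0.434). For 5 of the 59 the lines did not overlap, where 10.9% of all genes did not. Their median log2 fold change was 0.04, with 36 genes higher and 23 lower. ATG16L1 was not analysed here.

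Of the integrin partners and their RGD ligands, 6 of 7 were tested and 0 called, with 5 higher and 1 lower and a median log2 fold change of 0.26. VTN, which encodes vitronectin, a ligand of αvβ5, had 79.4, 58.2 and 29.2 normalised counts in WT and 138, 68.4 and 93.3 in POLDIP2 KO, a log2 fold change of 0.89 (SE 0.445, unadjusted p = 0.0867, adjusted p = 0.890 in limma). VTN lies beside POLDIP2, at chr17:28367284-28373091 against chr17:28346633-28357527, both on the minus strand, and its lines overlapped. ITGB1, the β1 chain, had a log2 fold change of 0.17 (unadjusted p = 0.421 in limma), and ITGB8, the 1 gene of the list that was lower, -0.01 (unadjusted p = 0.941 in limma). The levels of 5 β chains that pair with ITGAV were summed per kb of merged exons. ITGB1 held 48.0% to 59.8% of the sum over the WT libraries and 54.2% to 56.5% over the POLDIP2 KO libraries. ITGB5 held 31.8% to 42.3% and 35.4% to 36.9%, and for both chains the lines overlap. These shares depend on the length used. FN1, which encodes fibronectin, was at 78077, 21007 and 25817 in WT and 95745, 30298 and 34562 in POLDIP2 KO, and it passed the F test of the replicate number (adjusted p = 0.0200 in limma). Its log2 fold change was 0.41, with an unadjusted p of 0.515 in limma and 0.00229 (adjusted p = 0.129) in the blocked limma fit. Of the 59 tested pathway genes, 26 had an unadjusted p under 0.05 in the F test, against 18.9% of all genes. After adjustment 3 did, FN1 among them, against 0.913% of all genes.

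Of the other uptake receptors and bridging proteins, 4 of 12 were tested and 0 called, and 7 of the 12 had 3 reads or fewer in every library, among them the macrophage receptors MSR1, STAB1 and STAB2 and the tubby-like protein gene TULP1. LGALS3, which encodes galectin-3, a lectin described as a MERTK ligand, was at 1099, 718 and 628 in WT and 2022, 945 and 1574 in POLDIP2 KO. The lines overlapped by 1 library, and the log2 fold change was 0.87 (SE 0.321, unadjusted p = 0.0304, adjusted p = 0.673 in limma). LRP1, an endocytic receptor, was at 49034, 44032 and 38513 in WT and 67726, 53015 and 50819 in POLDIP2 KO, without overlap, with a log2 fold change of 0.38 (SE 0.164, unadjusted p = 0.0544, adjusted p = 0.789 in limma). SCARB1, a scavenger receptor related to CD36, had a log2 fold change of -0.03 (unadjusted p = 0.828 in limma).

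Of the genes for engulfment signalling and the cytoskeleton, 21 of 22 were tested and 0 called, with 13 higher and 8 lower and a median log2 fold change of 0.01. MYO7A, a myosin that moves phagosomes and melanosomes in the RPE, was at 1430, 1792 and 2458 in WT and 2615, 2694 and 4756 in POLDIP2 KO. Its lines did not overlap, and replicate 3 was the highest library in both. The log2 fold change was 0.80 (SE 0.286, unadjusted p = 0.0260, adjusted p = 0.633 in limma), with an adjusted p of 0.0748 in limma with the replicate block. PIK3R1, a regulatory subunit of PI 3-kinase, was at 2217, 1696 and 1837 in WT and 2378, 2412 and 3046 in POLDIP2 KO, without overlap, with a log2 fold change of 0.45 (SE 0.151, unadjusted p = 0.0211, adjusted p = 0.579 in limma). ELMO2, part of an activator of RAC1, was at 1130, 1336 and 1311 in WT and 992, 1026 and 891 in POLDIP2 KO, also without overlap, with a log2 fold change of -0.38 (SE 0.123, unadjusted p = 0.0182, adjusted p = 0.551 in limma). Its relative ELMO1 had a log2 fold change of -0.67 (SE 0.572, unadjusted p = 0.278 in limma) at 7.33 to 27.1 normalised counts.

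Of the genes for phagosome maturation, 21 of the 22 analysed were tested and 0 called, with 10 higher and 11 lower and a median log2 fold change of -0.01. LAMP2, a lysosomal membrane protein, was at 11876, 11381 and 9794 in WT and 13114, 12378 and 12309 in POLDIP2 KO, again without overlap, with a log2 fold change of 0.20 (SE 0.110, unadjusted p = 0.114 in limma). CTSD, which encodes the lysosomal protease cathepsin D, had a log2 fold change of 0.41 (SE 0.231, unadjusted p = 0.119 in limma). In the other direction, RUBCN, a factor of LC3-associated phagocytosis, had -0.39 (SE 0.176, unadjusted p = 0.0629 in limma) and MCOLN1, a lysosomal calcium channel, -0.26 (SE 0.200, unadjusted p = 0.239 in limma).

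The last list holds enzymes that mature the vitamin K-dependent ligands or shed the receptors, with their inhibitor TIMP3. All 7 were tested and 0 called, with 5 higher and 2 lower and a median log2 fold change of 0.08. TIMP3 had a log2 fold change of 0.48 (SE 0.465, unadjusted p = 0.340 in limma), and in the blocked limma fit its unadjusted p was 0.0167 (adjusted p = 0.297). ADAM10, a protease of cell surface proteins, had a log2 fold change of 0.15 (SE 0.214, unadjusted p = 0.505 in limma). GGCX, the carboxylase of GAS6 and protein S, had -0.04 (SE 0.154, unadjusted p = 0.794 in limma), and FURIN, a protease that activates precursors, -0.01 (SE 0.111, unadjusted p = 0.954 in limma).

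**Figure D4:**
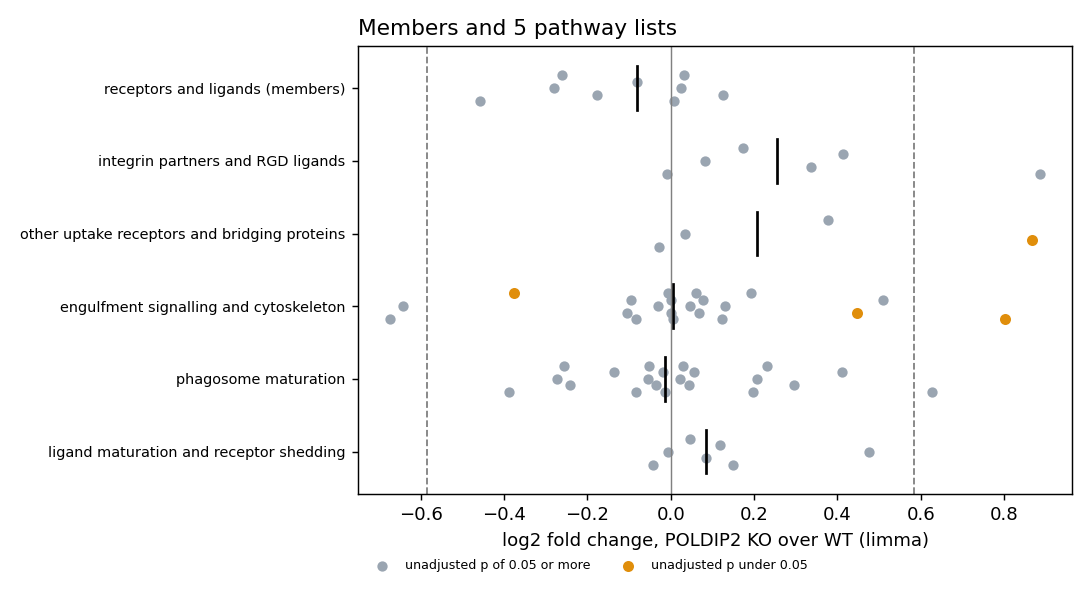
Log2 fold change of POLDIP2 KO over WT in limma for each tested gene of the members and the 5 pathway lists, with a vertical bar at the median of each list and dashed lines at a 1.5-fold change. Orange points, 4 of the 59 pathway genes and 0 of the 9 members, had an unadjusted p under 0.05, and no gene was called.

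The markers of the RPE and of other cell types that take up outer segments or dying cells were checked beside these genes. Of 13 RPE markers, 10 had a mean of at least 10, with the keratin KRT8 the most abundant, and the visual cycle gene RPE65 and TTR had 0 reads in all libraries, so 2 defining markers of mature RPE were not detected in either line. The summed count of the 13 was 82542, 76364 and 71880 in WT and 89585, 67495 and 76923 in POLDIP2 KO, which overlap, but KRT8 and KRT18 make up most of this sum, with means of 40335 and 31911. None of the RPE markers was called, and 1 of the 10 tested, LRAT, had an unadjusted p under 0.05, at 106, 75.3 and 29.2 in WT and 22.1, 24.4 and 28.8 in POLDIP2 KO (log2 fold change -1.27, SE 0.504, adjusted p = 0.731 in limma). Among all genes, 0.17% were called and 6.48% had an unadjusted p under 0.05 in limma. Of the 10 tested, 4 were higher and 6 lower, and the 1 with the largest positive value was BEST1, a chloride channel gene, at 61.4, 562 and 377 in WT and 239, 419 and 669 in POLDIP2 KO. Its log2 fold change was 0.78 (SE 0.817, unadjusted p = 0.370 in limma), and it ran from -0.18 to 1.41 when 1 library was left out. SERPINF1, which encodes the secreted factor PEDF, was like LRAT lower without overlap, which 10.9% of all genes showed in either direction, at 103, 168 and 108 in WT and 101, 74.1 and 49.6 in POLDIP2 KO (log2 fold change -0.77, SE 0.345, adjusted p = 0.822 in limma). For both genes the gap was narrow, 29.2 against 28.8 for LRAT and 103 against 101 for SERPINF1. The LRAT values at this gap stand on 28 reads in WT replicate 3 and 29 in POLDIP2 KO replicate 3.

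Macrophages also express AXL, MERTK and CD36, and of their 7 markers AIF1, CD163 and TYROBP were at 0 in all libraries. The 7 summed to 52.0, 55.2 and 55.3 in WT and 25.8, 30.9 and 27.8 in POLDIP2 KO. The sum was lower in all POLDIP2 KO libraries, and CSF1R was the most abundant marker. Of the 2 tested, CSF1R and ITGAM, 0 were called in limma, against 0.17% of all genes. The sum rests on these 2 genes. ITGAM was at 3.78, 28.1 and 37.6 in WT and 15.99, 6.51 and 5.96 in POLDIP2 KO. Its lines overlapped, and in replicate 1 POLDIP2 KO was the higher one. PTPRC was instead at 0 in all WT libraries and at 1.23, 3.26 and 6.95 in POLDIP2 KO. CD14 was at 0, 3.01 and 2.09 in WT and at 3.69, 6.51 and 2.98 in POLDIP2 KO. The 5 endothelial markers summed to at most 51.3 in a library, with VWF the most abundant. Of the photoreceptor markers, ARR3 was at 0 in all libraries, and CRX, a transcription factor, was the most abundant at a mean of 40.5.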

How the data were processed

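Polyadenylated RNA of 3 WT and 3 POLDIP2 KO samples was sequenced by the study as stranded single-end reads of 100 bp. The signal analysed is the normalised count per gene that the authors deposited: Salmon 1.8 estimates on GRCh38, summed with tximport and divided by a DESeq2 1.34.0 size factor. The annotation release is not given in the sources used here. The tools are those of the submitters' processing notes and the study's methods. Of 37902 gene IDs, 34152 were found in GENCODE 44, which gave names, positions and exon lengths, and 0 columns were left out.

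Reads were recovered as multiples of the smallest nonzero value of a column, and 100% of the values were whole within 0.001. In WT replicate 2 and POLDIP2 KO replicate 3 this step is close to 1, so the check says little there. If tximport corrected for length, the table does not show it. Counting intervals and the limit of 3 reads cover counting error only.

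The lines were compared with limma 3.58.1 (lmFit, eBayes with trend) in R 4.3.3, on log2(normalised count + 1), two-sided, keeping genes whose mean over the 6 libraries was 10 or more, with Benjamini-Hochberg adjustment over 14684 genes. P values measure the spread between biological replicates as the labels name them. Alternatives were edgeR 4.0.16 and DESeq2 1.42.0 on the recovered reads, other pseudocounts, filters and scalings, a replicate block, and leaving out each library. Lists were described by counts and medians without a set test. The steps were tested on simulated data.

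The replicate numbers come from the sample labels. Values centred within each line correlated at 0.315, 0.137 and 0.129 between same-numbered libraries over all genes tested. Each was above 0.1, the limit set for taking the numbers as pairs, and the others ran from -0.259 to 0.147. The highest of the others, WT replicate 3 with POLDIP2 KO replicate 2, was above the same-numbered values of replicates 2 and 3. These values therefore do not show that replicates 2 and 3 pair. The blocked fits, the differences between same-numbered libraries and the F test take the numbers as labelled.

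The members, gene lists and marker lists were chosen with earlier results of these data known. Named genes are the 10 members, POLDIP2, 2 pseudogene copies, the markers by their lists, in each pathway list the called genes or else the 2 with the smallest unadjusted p in each direction, and the 3 genes most correlated with MERTK and with AXL. FN1, CAV1, ATG7, RAB7A, COL1A1, COL1A2, PDGFRB, LRAT, SERPINF1, THY1, COL3A1, DCN, PTPRC, CD14, ITGAM and the genes named as at the limit of detection were named after their values were seen. The guide sequence was read from a supplementary table of the study and placed on GRCh38 by exact matching, and promoter windows are from RefSeq. For the photoreceptor list, 1 gene is not reported here.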

Additional observations from a re-analysis of the deposited data

How the results depend on the processing

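The number of members called was 0 under all 18 alternatives, 12 with all libraries and 6 that left out 1 library (MERTK and CD36 could not be tested with a mean of at least 50), with a smallest unadjusted p of 0.0521 (AXL in limma, without WT replicate 2) and a smallest adjusted p of 0.487 (MFGE8 in limma with the replicate block). The pathway lists likewise had 0 calls. Over all genes, limma called 25, and 16 with a mean of at least 50, 248 were called by DESeq2, 17 by edgeR and 5 by edgeR with the replicate block. Leaving out 1 library gave 0 to 10 calls in limma, 10 without WT replicate 1 or POLDIP2 KO replicate 1 and 0 without any other library, where POLDIP2 itself, at -2.03 to -1.92 on the log2 scale, had an adjusted p of 0.0529 to 0.0809 and 693 to 903 genes had an unadjusted p under 0.05. edgeR and DESeq2 were not run on 5 libraries. An arm left with 2 libraries rests on few degrees of freedom. With the replicate block limma called 30 genes, and among the genes named here the pairing changed the call of COL1A1 in limma, not in edgeR (adjusted p = 0.0603 with the block), and no other.

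Signs near 0 were not stable. Leaving out 1 library moved the log2 fold change of MERTK from -0.77 to 0.10, TYRO3 from -0.076 to 0.16, GAS6 from -0.17 to 0.46, PROS1 from -0.28 to 0.26, ITGAV from -0.20 to 0.12 and ITGB5 from -0.020 to 0.080, while AXL (-0.30 to -0.09), MFGE8 (-0.51 to -0.07) and CD36 (-0.81 to -0.04) stayed negative. PROS1 was -0.024 in edgeR and -0.022 in DESeq2, and ITGB5 was -0.037 after quantile normalisation. The median correlation between members was -0.083 to 0.17 when 1 library was left out. The cause was not tested. With the longest transcript as length, the ratio of AXL to MERTK in WT was 673, but the WT level per kb became 1236 for MFGE8, 3191 for ITGAV, 1345 for GAS6, 2.57 for CD36, 1518 for PROS1, 4886 for ITGB5 and 163 for TYRO3. For ITGB1 the WT level went from 4691 to 12168 per kb. The shares of the bridging ligands and of the β chains were computed on merged exons only and depend on this choice. MERTK and CD36 stand on 7 to 64 reads per library.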
